A study of Mus musculus with 12 samples.

Results

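The Slc25 genes encode the mitochondrial carrier family, and the members described here were the genes named Slc25a followed by a number that had a read count in all 6 pools of hearts. Of 47 family genes in the count table, 42 met that rule, out of 17165 genes with values in all pools and 21783 genes listed. The 5 others (Slc25a2, Slc25a31, Slc25a34, Slc25a41 and Slc25a54) had blank cells and reached at most 20 RNA reads in any pool, so they were not tested. Hearts came from mouse embryos labelled female at embryonic day 10.5. The control group (WT) carried Ddx3x fl/fl, and in the Ddx3x CM-KO group the floxed gene was deleted in cardiomyocytes by Cre driven from the Tnnt2 promoter. Whether the controls also carried Cre is not stated in the labels. Ddx3x encodes an X-linked RNA helicase that takes part in translation. Whole hearts were used, so each pool also held endocardial, epicardial and blood cells in which this Cre is not driven. Each genotype had 3 pools of 20 hearts, and each pool gave an RNA-seq library and a library of ribosome-protected footprints, the short mRNA pieces covered by ribosomes.

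Mitochondrial carriers are small membrane proteins that pass metabolites, nucleotides, cofactors, ions and amino acids across the inner mitochondrial membrane. Their mRNAs are translated in the cytosol, and the finished proteins are inserted by the TOM and TIM22 complexes. Heart muscle depends on them for exchanging ATP against ADP, for taking up phosphate and fatty acid fuels, and for moving reducing equivalents through the malate-aspartate shuttle. Slc25a46 is an exception, since it sits in the outer membrane and takes part in mitochondrial dynamics and cristae organisation. Slc25a17 is another, since it is a carrier of peroxisomes.

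Library totals ran from 14664486 to 19894094 RNA reads and from 7314972 to 14343747 footprints. Ddx3x RNA stood at 293, 303 and 311 CPM (read counts scaled to a common library size) in WT pools 1 to 3 and at 280, 215 and 221 CPM in the CM-KO pools. Over whole hearts it differed by -0.34 on the log2 scale (SE 0.10, adjusted p = 0.0883). The CM-KO pools also held reads of the Y-linked gene Uty, with 174, 108 and 11 RNA counts, while this gene was blank in the 3 WT pools. Ddx3y, the Y-linked relative of Ddx3x, had 106, 64 and 4 RNA counts in CM-KO pools and 2, 2 and 0 in WT pools. Its footprint counts were 69, 75 and 24 in CM-KO pools and 15, 21 and 19 in WT pools. The RNA reads of Uty and Ddx3y go against the label female, mainly for CM-KO pools 1 and 2. Xist, expressed from one X chromosome of female cells, stood at 400, 286 and 337 CPM in CM-KO RNA. In WT RNA it was at 344, 318 and 410 CPM, and the pools overlapped. The part of the Y-linked reads in the results was not tested beyond the fits without CM-KO pools 1 and 2. Afp, a liver and yolk sac gene, varied within both genotypes, at 49.6, 259 and 305 CPM in WT and 90.0, 20.2 and 220 CPM in CM-KO RNA. Values below are also given without CM-KO pools 1 and 2, or with Afp as a covariate, where that ended a call. Cardiomyocyte markers were present in every library, with a summed RNA level of 12500 to 14300 CPM in WT and 13100 to 14200 CPM in CM-KO. At an adjusted p under 0.05 in edgeR, 2 of 10 markers were higher in CM-KO RNA (Nkx2-5 and Nppa) and 1 was lower (Myl2). Of all genes, 3.57% were higher and 0.805% lower. Ryr2 was lower in footprints and in their ratio to RNA, where 0.23% and 0.479% of all genes passed. In these bulk samples, fewer cells of a type and less RNA per cell cannot be told apart.

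The family was led by the energy carriers. Per kilobase of the canonical transcript, Slc25a4, the ADP/ATP carrier typical of heart and muscle, was highest in WT RNA at 286 ± 7.02 CPM per kb (SD, n = 3). Slc25a5, its paralogue of proliferating cells, followed at 142 ± 7.91 CPM per kb, and Slc25a3, the phosphate carrier that feeds ATP synthase, at 135 ± 5.75 CPM per kb; these neighbours differed by about their SDs. Slc25a37, the iron importer mitoferrin-1, stood at 96.7 ± 24.4 CPM per kb and Slc25a39, needed for mitochondrial glutathione, at 72.2 ± 6.40 CPM per kb. Slc25a37 had the largest spread of those 5 genes, with WT pools at 304, 400 and 508 CPM before division by length. At the other end, Slc25a18, Slc25a48 and Slc25a35 were each below 1 CPM per kb. Slc25a46 ranked 13 of 42, at 19.4 ± 1.56 CPM per kb.

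**Figure D1:**
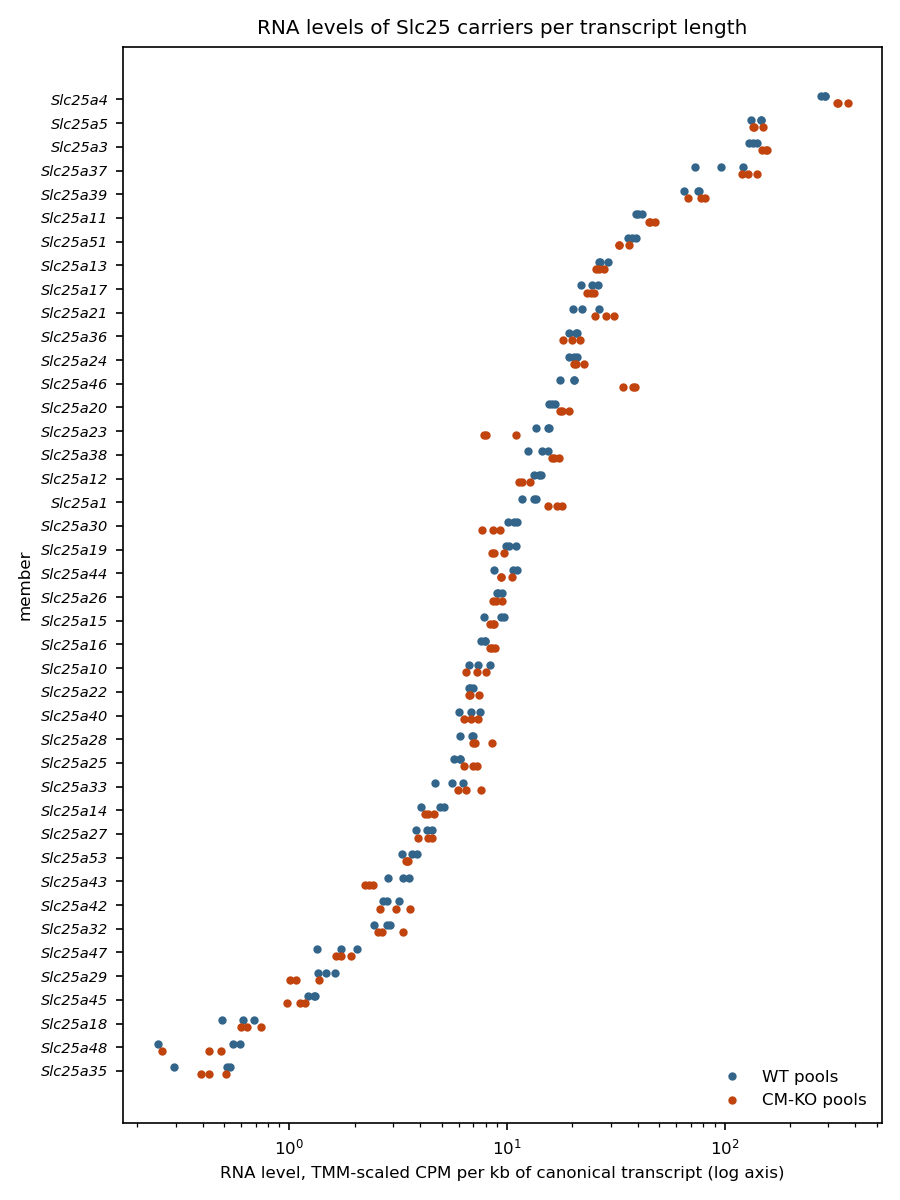
RNA level of each of the 42 members in every pool, as scaled CPM per kilobase of the canonical transcript on a log axis, in order of the WT mean; blue points are the 3 WT pools and red points the 3 CM-KO pools. Slc25a4 leads at 286 CPM per kb in WT, and the red points of Slc25a46 lie to the right of the blue ones while those of Slc25a23 lie to the left.

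As a share of all reads, the 42 genes took 0.296% to 0.325% of RNA reads in WT and 0.326% to 0.344% in CM-KO, while they took 0.34% to 0.365% of footprints in WT and 0.311% to 0.324% in CM-KO. The genotypes did not overlap in either assay, and the share was higher in CM-KO RNA and lower in CM-KO footprints. Slc25a4, Slc25a3 and Slc25a37 together held 43.0% to 44.7% of the family's RNA reads in WT and 47.1% to 48.1% in CM-KO, and 69.4% to 70.7% of its footprints across all pools. The 39 other members took 0.169% to 0.18% of RNA reads in WT and 0.172% to 0.179% in CM-KO, which overlapped, and 0.0998% to 0.107% of footprints in WT and 0.095% to 0.0986% in CM-KO, which did not. Erythroid marker genes summed to 42900 to 57100 CPM in WT footprints and 69400 to 88800 CPM in CM-KO footprints, and their part in these shares was not tested.

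Ribosome occupancy, the log2 ratio of footprints to RNA in a pool, spread the members widely in WT hearts. The abundant Slc25a4 had the highest ratio, 2.00 ± 0.09 (SD, n = 3), which is above 97.9% of all 15231 genes tested. Slc25a3 followed at 1.58 ± 0.16, and Slc25a20, the carnitine-acylcarnitine carrier for fatty acid oxidation, at 1.42 ± 0.05. The lowest ratios belonged to Slc25a36, a pyrimidine nucleotide carrier, at -3.06 ± 0.27, Slc25a51, the NAD+ carrier, at -2.75 ± 0.09, and Slc25a23, a calcium-regulated ATP-Mg/phosphate carrier, at -2.72 ± 0.19. The bases around the annotated start codon of these 6 genes and of Slc25a1, whose RNA differed between the genotypes, are shown so that both ends of the occupancy range can be compared. They were read 5′ to 3′ on the sense strand from the canonical GENCODE transcripts on GRCm39. Capitals mark the start codon.
Slc25a4: ccggctttcagcATGgggga
Slc25a3: ccccgcaggaggATGttctc
Slc25a20: agaagactgagcATGgcaga
Slc25a1: ctcctgcccgctATGgctgc
Slc25a23: tgggcgggcgccATGcgggg
Slc25a51: gccggaagcaccATGatgga
Slc25a36: gcagaagagagaATGagcca

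The A of the start codon lies at position 46663959 of chromosome 8 for Slc25a4, 90959564 of chromosome 10 for Slc25a3, 108539427 of chromosome 9 for Slc25a20, 17745943 of chromosome 16 for Slc25a1, 57366673 of chromosome 17 for Slc25a23, 45400137 of chromosome 4 for Slc25a51 and 96993004 of chromosome 9 for Slc25a36. Slc25a20 is on the plus strand and the others are on the minus strand. A purine at position 3 before the start codon and a G directly after it are the parts of this context known to favour initiation. Among the 40 members tested for occupancy, 33 (82.5%) had the purine and 25 (62.5%) the G, against 87.2% and 52.8% of 13635 annotated genes tested. The purine was present in each of the contexts shown, at the top and at the bottom of the occupancy range. The G was present in Slc25a4, Slc25a20 and Slc25a1 and absent from Slc25a3, Slc25a23, Slc25a51 and Slc25a36.

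The median WT ratio of the 40 members was -0.44, below the median of 0.05 over all genes, whose quartiles were -0.62 and 0.67. The distance between the medians, -0.50, was the same with CPM scaled to library totals. The median SD between pools was 0.171 per member. In the lowest 5% of all genes stood 4 members, namely Slc25a36, Slc25a51, Slc25a23 and Slc25a27, and in the highest 5% 1 member, Slc25a4. Nothing read here states which part of a transcript was counted in each assay, so transcript and coding lengths are given beside the ratios. The 40 members had a median coding length of 954 bases, against 1470 in 13892 annotated genes tested. Their median transcript length was 3030.5 bases, against 3386 in 15192 genes. The 4 lowest members, Slc25a36, Slc25a51, Slc25a23 and Slc25a27, have transcripts of 5228, 4438, 3410 and 2895 bases, and the 3 highest, Slc25a4, Slc25a3 and Slc25a20, of 1929, 2801 and 1783 bases. The coding sequences of the 4 lowest have 936, 897, 1404 and 969 bases, and those of the 3 highest 897, 1074 and 906 bases. Slc25a12, with the longest transcript of the family (6351 bases) and also its longest coding sequence (2034 bases), had a ratio of 0.66. Across the 40 members, Spearman's rho with the WT ratio was -0.33 for transcript length and -0.02 for coding length. These describe members that share the same libraries. The part of these lengths, or of the coding share of a transcript, in the ratios and in the low family median was not tested.

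**Figure D2:**
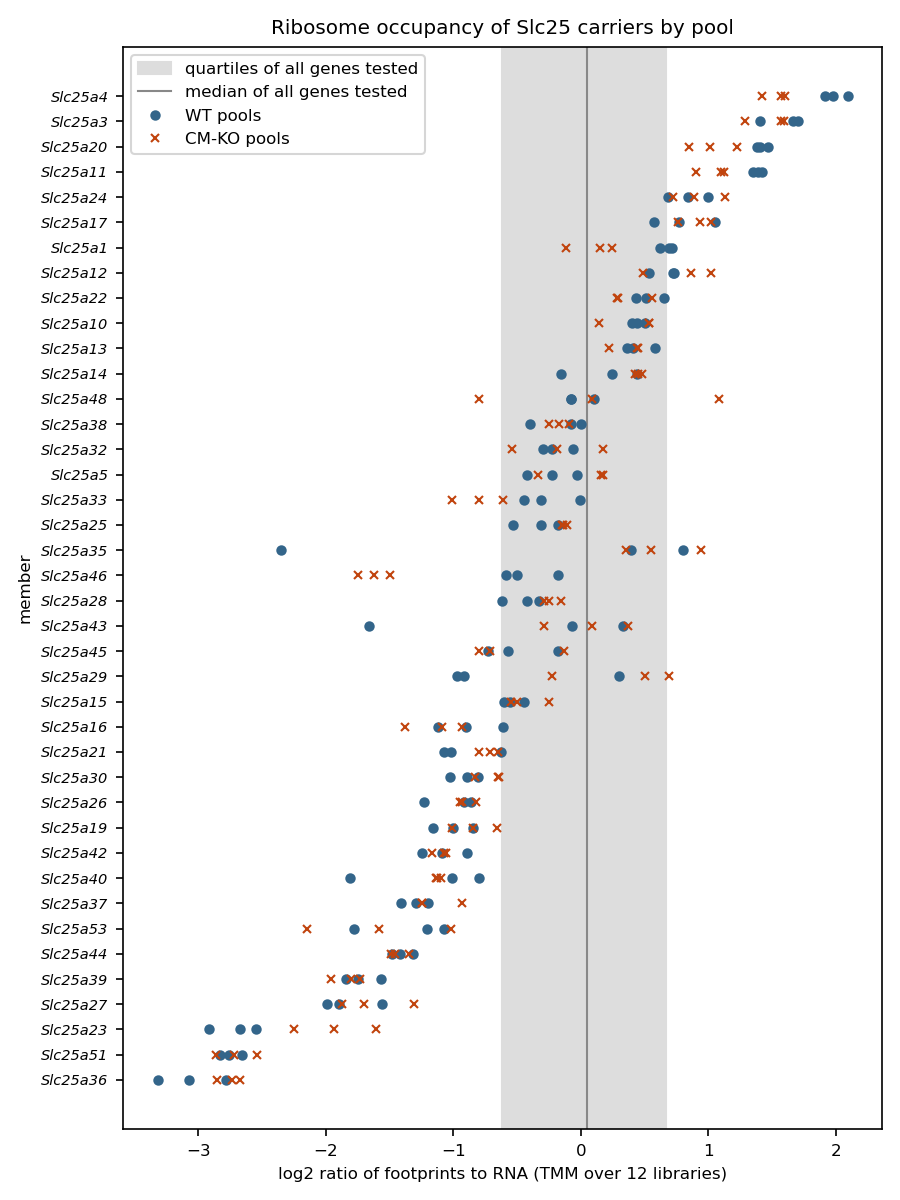
Log2 ratio of footprints to RNA for the 40 members tested in both assays, 1 point per pool, in order of the WT mean; the grey band spans the quartiles of all genes tested and the line is their median. WT ratios run from -3.06 in Slc25a36 to 2.00 in Slc25a4, and the CM-KO crosses of Slc25a46 lie apart from its WT points.

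Between the genotypes, the RNA of 3 of 42 members (7.14%) passed an adjusted p under 0.05 in edgeR's quasi-likelihood test with Benjamini-Hochberg adjustment over 17147 genes, where 4.37% of all genes did. Slc25a46 and Slc25a1 were higher in CM-KO, 4.76% of members against 3.57% of all genes. Slc25a23 was lower, 2.38% against 0.805%. The counts are small and close to the background. The median log2 fold change was 0.01 for the members and 0.01 for all genes, with members from -0.74 to 0.93. Pools of the genotypes did not overlap in 15 members (35.7%), against 21.7% of all genes, with 9 higher (21.4% against 13.3%) and 6 lower (14.3% against 8.43%). With the study's own fold threshold added, a log2 fold change of at least 0.5, Slc25a46 and Slc25a23 remained, 4.76% of members against 1.67% of all genes. With upper quartile scaling in place of TMM, the split of calls turned to 1 higher (Slc25a46) and 3 lower (Slc25a23, Slc25a30 and Slc25a12). Over all genes this scaling called 2.79% higher and 1.59% lower and moved the median log2 fold change from 0.01 to -0.04.

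For footprints, no member of 40 passed the threshold in edgeR, where 0.23% of 15249 genes did, while 8 members (20.0%) had an unadjusted p under 0.05 against 8.86% of all genes. DESeq2 called 1 member, Slc25a4, lower, where it called 1.53% of all genes with an adjusted p. With the study's threshold of a log2 fold change of at least 1, 0.059% of all genes and no member passed. Pools did not overlap in 9 members (22.5%), where 14.8% of all genes did not. Of these 9, 8 (20.0% of members) were lower in CM-KO, where 7.05% of all genes were, and 1, Slc25a25, was higher, where 7.74% were. These 8 were Slc25a1, Slc25a4, Slc25a11, Slc25a13, Slc25a20, Slc25a22, Slc25a30 and Slc25a46. The members' median was -0.06 against -0.01 for all genes. For occupancy, 1 member of 40 was called, Slc25a46, lower in CM-KO, where 0.479% of 15231 genes were called and 0.473% were called lower. It also passed the study's fold threshold, as 0.144% of all genes did. An unadjusted p under 0.05 was reached by 6 of 40 members and by 6.77% of all genes. Pools did not overlap in 9 members (22.5%) against 12.3% of all genes, with 6 lower (against 7.24%) and 3 higher (against 5.02%), and the medians were 0.07 for the members and 0.03 for all genes.

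**Figure D3:**
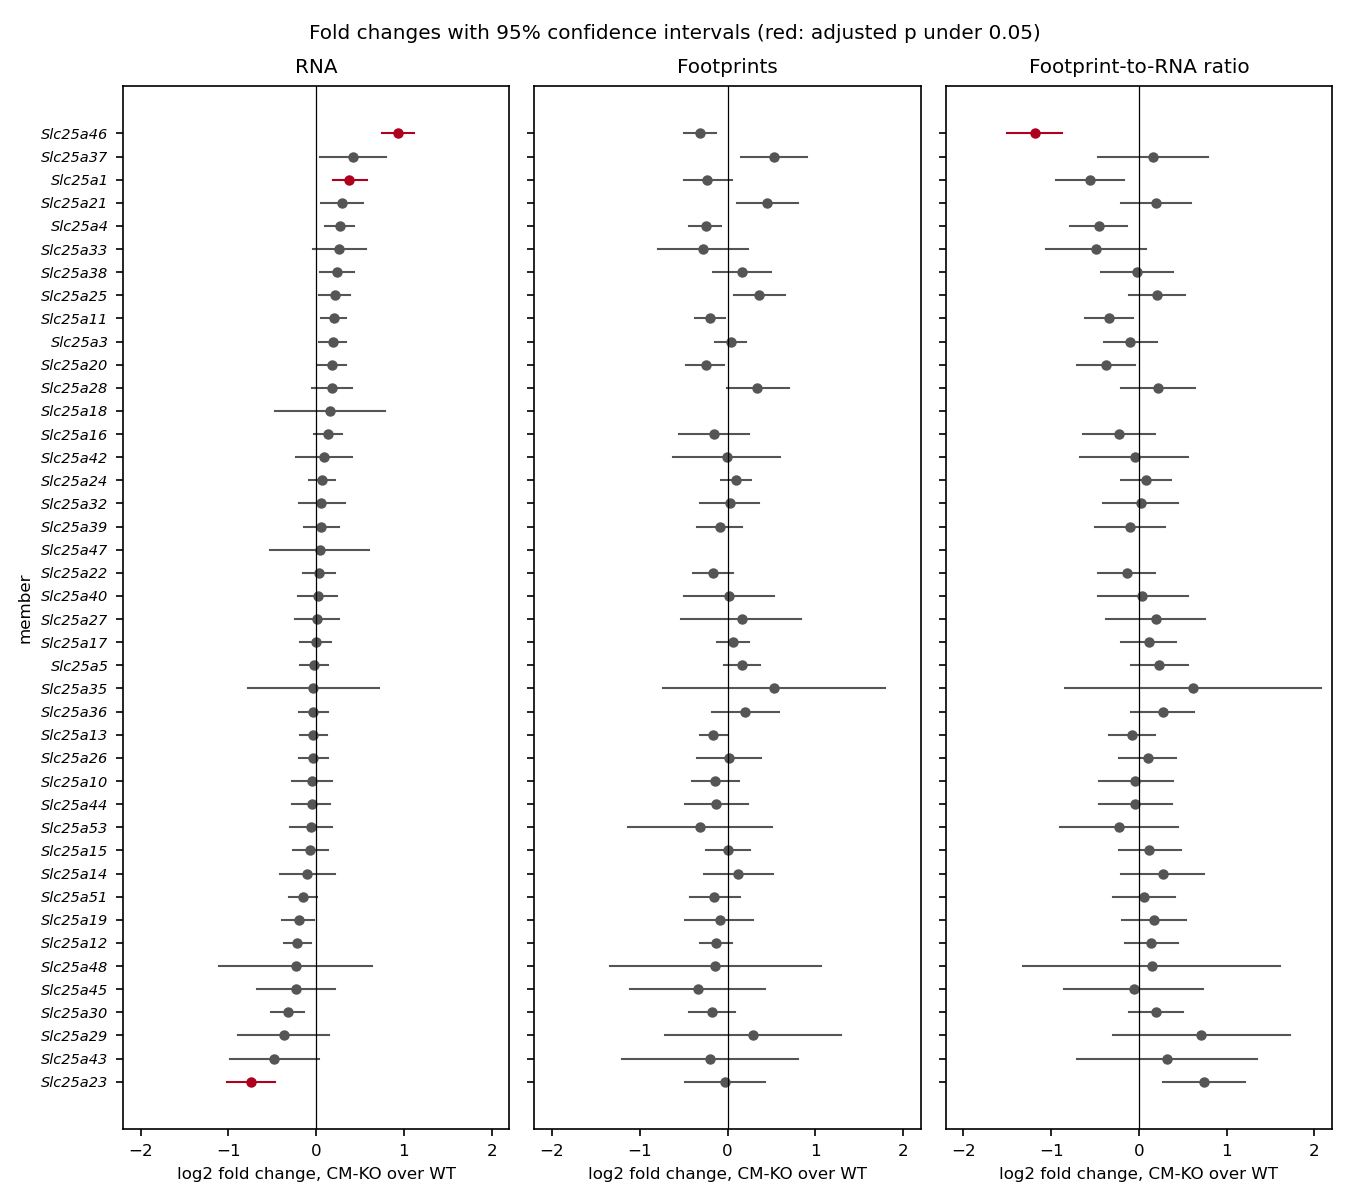
Log2 fold changes of CM-KO over WT for each member with 95% confidence intervals, in RNA, footprints and the footprint-to-RNA ratio, in order of the RNA change; red marks an adjusted p under 0.05 in edgeR's quasi-likelihood test. Slc25a46 is at the top in RNA (0.93) and furthest to the left in the ratio (-1.19).

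Slc25a46 had the largest change of the family in RNA and in occupancy, and these went in opposite directions. The gene lies on the minus strand of chromosome 18, from 31689155 to 31742990 on GRCm39. Its RNA stood at 89.6, 77.6 and 89.5 CPM in WT pools 1 to 3, from 1330, 1435 and 1793 reads, and at 151, 168 and 171 CPM in CM-KO, from 2374, 2538 and 2926 reads. Every CM-KO pool was far above every WT pool, and the change on the log2 scale was 0.93 (SE 0.08, adjusted p = 0.000366). Its footprints did not follow. They stood at 43.6, 46.8 and 42.8 CPM in WT and at 34.5, 37.9 and 34.7 CPM in CM-KO, so all CM-KO pools were below all WT pools. The change of -0.31 (SE 0.08, adjusted p = 0.215) did not pass the test.

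The footprint-to-RNA ratio of Slc25a46 was -0.59, -0.18 and -0.50 in WT pools and -1.62, -1.50 and -1.75 in CM-KO pools. The groups were separated by a wide gap, and the occupancy change was -1.19 (SE 0.15, adjusted p = 0.00108). The RNA change kept its call in 14 of 14 alternatives, from 0.85 to 1.00. The occupancy change kept its call in 12 of 13, from -1.34 to -1.10; without CM-KO pools 1 and 2 together it was -1.30 with adjusted p = 0.0552. The labels do not state the strand setting of the counting. An opposite-strand noncoding gene, B930094E09Rik, shares 426 exon bases with Slc25a46, and it was listed with 18 to 20 RNA reads in every pool. In WT the gene's ratio was above 31.0% of all genes, so it was not among the extremes of the family before deletion.

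The other genes of mitochondrial fission and fusion were examined beside Slc25a46 with a list of 10. In RNA 1 of 10 was called, where 4.37% of all genes were. This was Mff, an outer membrane receptor for the fission GTPase, which was higher in CM-KO (log2 fold change 0.48, SE 0.06, adjusted p = 0.0028). Its occupancy change was -0.64 (SE 0.14, adjusted p = 0.0575). Dnm1l, the fission GTPase itself, had an RNA change of -0.04 (adjusted p = 0.919), and the fusion genes Mfn1, Mfn2 and Opa1 had 0.16, -0.12 and 0.04 (adjusted p = 0.344, 0.436 and 0.881). None of the 10 was called in footprints or occupancy.

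**Figure D4:**
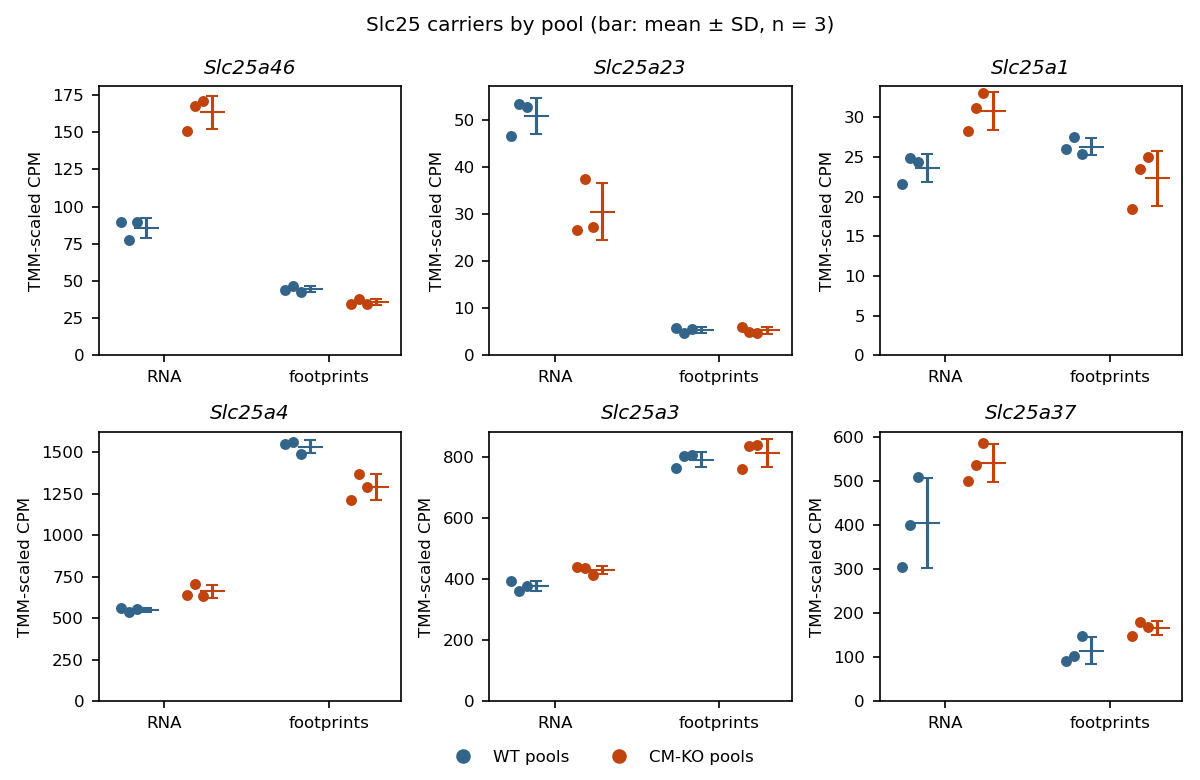
Scaled CPM of 6 carriers in each pool, RNA on the left and footprints on the right of each panel; points are pools and bars are the mean ± SD (n = 3) of WT (blue) and CM-KO (red). In Slc25a46 the CM-KO pools are higher in RNA (151 to 171 CPM against 77.6 to 89.6) and lower in footprints, and in Slc25a23 they are lower in RNA with overlapping footprints.

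Slc25a23 was the only member called lower in RNA when edgeR was run with TMM scaling on all 6 pools. Without CM-KO pool 1, Slc25a30 was called lower too. The RNA level of Slc25a23 was 46.5, 53.3 and 52.8 CPM in WT and 26.6, 37.4 and 27.3 CPM in CM-KO, and the highest CM-KO pool stayed below the lowest WT pool. The log2 fold change was -0.74 (SE 0.12, adjusted p = 0.00864), and the call held in 14 of 14 alternatives, from -0.92 to -0.67. Footprints were few, from 35 to 68 reads a pool, at 5.78, 4.75 and 5.56 CPM in WT and 6.08, 4.97 and 4.82 CPM in CM-KO. They overlapped, with a change of -0.03 (SE 0.21, adjusted p = 0.98) and a 95% confidence interval from -0.49 to 0.43. The ratio was -2.55, -2.92 and -2.67 in WT pools and -1.61, -2.25 and -1.94 in CM-KO pools. All CM-KO ratios were above all WT ratios, but the change of 0.74 (SE 0.22, adjusted p = 0.283) did not pass the test. A noncoding gene on the opposite strand, Gm17168, shares 172 exon bases with it.

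The paralogues of Slc25a23, which carry ATP-Mg against phosphate under calcium control, did not pass the test. Slc25a24 had an RNA change of 0.07 (SE 0.07, adjusted p = 0.739). Slc25a25 was at 24.3, 25.8 and 25.9 CPM in WT RNA and 31.1, 29.8 and 27.0 CPM in CM-KO, with a change of 0.21 (SE 0.08, adjusted p = 0.21), and its footprint change was 0.36 (SE 0.13, adjusted p = 0.431). Slc25a25 was the 1 member of 40 whose CM-KO pools were all above the WT pools in RNA, in footprints and in their ratio, a layout noticed after the values were seen and held by 0.184% of all genes tested for occupancy.

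Slc25a1, the citrate carrier that exports citrate for fatty acid synthesis, was higher in CM-KO RNA. It stood at 21.6, 24.9 and 24.4 CPM in WT and at 28.3, 31.2 and 33.0 CPM in CM-KO, without overlap, and changed by 0.38 (SE 0.09, adjusted p = 0.0349). This call held in 5 of 14 alternatives. It was lost when any of 4 pools was left out, without CM-KO pools 1 and 2 together (0.48, adjusted p = 0.174) and with Afp as a covariate (0.43, adjusted p = 0.0689). Without WT pool 1 the change was 0.33 and the adjusted p 0.0871, and without WT pool 2 they were 0.41 and 0.168. Without CM-KO pool 2 they were 0.38 and 0.134, and without CM-KO pool 3 they were 0.33 and 0.132. Footprints were at 26.0, 27.5 and 25.4 CPM in WT and 18.4, 23.5 and 25.0 CPM in CM-KO, again without overlap but in the other direction, with a change of -0.23 (SE 0.12, adjusted p = 0.661). The ratio was 0.71, 0.69 and 0.62 in WT pools and -0.12, 0.24 and 0.15 in CM-KO pools. Its occupancy change of -0.56 (SE 0.18, adjusted p = 0.373) was not called, and with the pool as a block it was -0.58 with adjusted p = 0.038.

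CM-KO pools were all above WT in RNA and all below WT in footprints and occupancy in 5 of the 40 members tested, namely Slc25a46, Slc25a1, Slc25a4, Slc25a11 and Slc25a20. Occupancy is formed from RNA and footprints, so its direction here follows from theirs and is no separate observation. This layout was noticed after the values were seen, and 1.27% of the 15231 genes tested for occupancy had it. Neither Slc25a12, Slc25a13 nor Slc25a10 had it. With TMM scaling on all pools, Slc25a4, Slc25a11 and Slc25a20 did not pass the edgeR test in any comparison. Slc25a4 RNA was 559, 535 and 558 CPM in WT and 641, 709 and 636 CPM in CM-KO, a change of 0.27 (SE 0.07, adjusted p = 0.0721). Its footprints were 1550, 1560 and 1490 CPM in WT and 1210, 1370 and 1290 CPM in CM-KO, a change of -0.25 (SE 0.08, adjusted p = 0.376). The ratio was 1.91, 2.09 and 1.98 in WT pools and 1.42, 1.60 and 1.57 in CM-KO pools, and the occupancy change was -0.46 (SE 0.15, adjusted p = 0.366). Genotypes did not overlap in RNA or in footprints, nor in the ratio formed from them. With DESeq2 the RNA change was called (adjusted p = 0.00189) and so was the footprint change (adjusted p = 0.027), where DESeq2 called 8.12% and 1.53% of all genes with an adjusted p. With upper quartile scaling in edgeR the occupancy change was called at -0.48 (adjusted p = 0.0127), where 1.63% of all genes were called.

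Slc25a11, the oxoglutarate carrier of the malate-aspartate shuttle, was at 69.3, 67.4 and 71.7 CPM in WT RNA and 77.7, 82.7 and 78.4 CPM in CM-KO. Its footprints were at 134, 124 and 124 CPM in WT and 102, 115 and 114 CPM in CM-KO. The RNA change was 0.20 (SE 0.06, adjusted p = 0.125) and the occupancy change -0.34 (SE 0.13, adjusted p = 0.524), and with upper quartile scaling the latter passed the threshold. Slc25a20 RNA was 27.9, 28.8 and 29.6 CPM in WT and 31.4, 34.4 and 31.9 CPM in CM-KO, while its footprints were 53.6, 54.8 and 52.9 CPM in WT and 40.0, 51.3 and 43.9 CPM in CM-KO. Its occupancy change was -0.37 (SE 0.16, adjusted p = 0.65). Slc25a3 differed from these in its footprints, which overlapped at 763, 804 and 805 CPM in WT and 759, 837 and 839 CPM in CM-KO (change 0.04, SE 0.08, adjusted p = 0.942). Its RNA was 394, 362 and 378 CPM in WT and 441, 435 and 415 CPM in CM-KO, a change of 0.19 (SE 0.07, adjusted p = 0.189).

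Paralogues were compared by the log2 ratio of their read counts within a library, which needs no scaling between libraries. The 6 pairs in 2 assays gave 12 tests, each an exact two-sided permutation test of 3 against 3 pools whose smallest possible p is 0.1, or 0.3 after Benjamini-Hochberg adjustment here. The clearest pair was Slc25a4 over Slc25a5, whose coding sequences are 77.6% identical. In RNA the ratio was 1.53, 1.60 and 1.52 in WT pools and 1.69, 1.98 and 1.81 in CM-KO pools, so it was higher by 0.28 in CM-KO without overlap (exact permutation p = 0.1). In footprints it was 3.86, 3.72 and 3.73 in WT pools and 3.45, 3.42 and 3.22 in CM-KO pools, lower by 0.41 on the log2 scale without overlap (exact permutation p = 0.1). In these pools the read-count ratio was thus higher in CM-KO RNA and lower in CM-KO footprints, and neither test could pass the threshold. How reads that match both paralogues were assigned is not stated in the labels. The part of such reads in these ratios was not tested. Slc25a5 itself was at 194, 176 and 195 CPM in WT RNA and 198, 179 and 181 CPM in CM-KO, with overlapping pools and a change of -0.02 (SE 0.07, adjusted p = 0.972). Its footprint change was 0.17 (SE 0.09, adjusted p = 0.681).

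Of the other pairs, Slc25a12 over Slc25a13, the aspartate/glutamate carriers of the malate-aspartate shuttle, had a lower RNA ratio in CM-KO, -0.57 ± 0.03 against -0.39 ± 0.09 (SD, n = 3), without overlap. Slc25a24 over Slc25a25 had a lower footprint ratio, 2.42 ± 0.18 against 2.69 ± 0.15, where the nearest pools of the genotypes lay 0.00322 log2 units apart. The ratios of Slc25a37 over Slc25a28, Slc25a33 over Slc25a36 and Slc25a39 over Slc25a40 overlapped between the genotypes in both assays. The coding sequences of these 5 pairs are 55.0% to 70.7% identical.

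**Figure D5:**
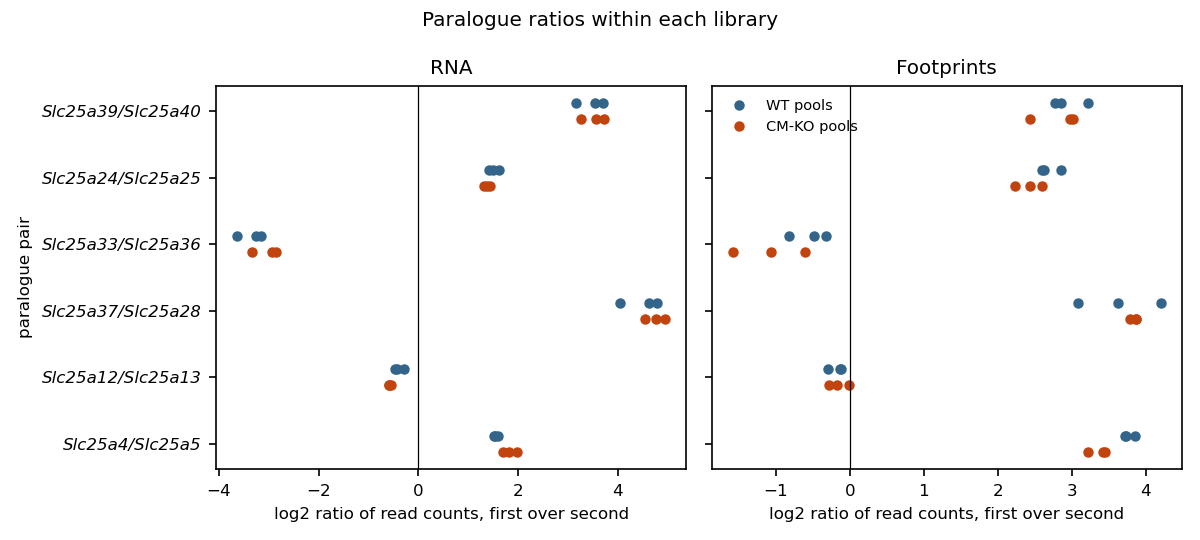
Log2 ratio of the read counts of 2 paralogues within each library, for 6 pairs, in RNA (left) and footprints (right); blue points are WT pools and red points CM-KO pools. For Slc25a4 over Slc25a5 the CM-KO points lie to the right of WT in RNA (1.83 against 1.55 on average) and to the left in footprints (3.36 against 3.77).

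The carriers of iron, cofactors and nucleotides formed the largest group, with 13 members tested and none called in any comparison. Slc25a37, which brings iron to mitochondria for heme synthesis in red cell precursors, was at 304, 400 and 508 CPM in WT RNA and 500, 536 and 586 CPM in CM-KO. WT pool 3 reached the CM-KO range. The change was 0.42 (SE 0.17, adjusted p = 0.248), without WT pool 3 it was 0.63 with adjusted p = 0.00529, and without WT pool 1 it was 0.25 with adjusted p = 0.314. Footprints were 91.1, 103 and 149 CPM in WT and 148, 180 and 168 CPM in CM-KO, a change of 0.53 (SE 0.17, adjusted p = 0.372), and the ratio changed by 0.16 (SE 0.29, adjusted p = 0.998).

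Slc25a37 is most abundant in erythroid cells, and values of the erythroid markers are given beside it. Of 15 markers in the list, 14 were in the table, and the log2 fold changes of all 14 were above 0 in RNA and in footprints. In RNA 6 of 14 were called higher, where 3.57% of all genes were, with a median log2 fold change of 0.46 against 0.01 for all genes. In footprints 1 was called, where 0.23% of all genes were, with a median of 0.66 against -0.01. Their summed level was 8800 to 14000 CPM in WT RNA and 12800 to 16000 CPM in CM-KO RNA, and 42900 to 57100 CPM in WT footprints and 69400 to 88800 CPM in CM-KO footprints. None of the markers in the table was at 0 in any library. Their part in the Slc25a37 values was not tested. The other carriers tied to heme and redox supply had smaller RNA changes. Slc25a38, the glycine carrier of heme synthesis, was at 23.0, 26.6 and 28.4 CPM in WT RNA and 30.3, 32.1 and 29.7 CPM in CM-KO, without overlap, a change of 0.24 (SE 0.09, adjusted p = 0.203). Slc25a39 changed by 0.06 in RNA (SE 0.09, adjusted p = 0.867) and its exons share 814 bases with the opposite-strand gene Rundc3a. Slc25a28, mitoferrin-2, had a footprint change of 0.34 (SE 0.16, adjusted p = 0.583).

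Slc25a36 and Slc25a51, the members with the lowest occupancy in WT, were low in CM-KO pools too. Slc25a36 had ratios of -3.32, -3.07 and -2.78 in WT pools and -2.74, -2.67 and -2.85 in CM-KO pools, with a change of 0.27 (SE 0.17, adjusted p = 0.951). Slc25a51 had ratios of -2.76, -2.66 and -2.83 in WT pools and -2.86, -2.54 and -2.72 in CM-KO pools, with overlapping pools and a change of 0.06 (SE 0.16, adjusted p = 0.998). Slc25a33, the other pyrimidine nucleotide carrier, had ratios of -0.01, -0.31 and -0.45 in WT pools and -1.01, -0.80 and -0.61 in CM-KO pools. These did not overlap, but they rest on 31 to 90 footprints a pool, and the change of -0.49 (SE 0.27, adjusted p = 0.879) did not pass the test.

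Among the 8 carriers of TCA cycle and malate-aspartate intermediates, the RNA of Slc25a1 was called and no other. In footprints 6 of 7 tested had a fold change below 0, as did 22 of the 40 members, and none was called. The median was -0.16, against -0.06 for the members and -0.01 for all genes. Slc25a13 footprints were at 105, 116 and 110 CPM in WT and 97.2, 97.2 and 101 CPM in CM-KO, a change of -0.16 (SE 0.07, adjusted p = 0.549). Slc25a12 RNA was at 90.8, 84.5 and 88.7 CPM in WT and 80.9, 74.5 and 72.0 CPM in CM-KO, a change of -0.22 (SE 0.07, adjusted p = 0.124). The exception in footprints was Slc25a21, the oxodicarboxylate carrier, at 24.9, 18.7 and 23.0 CPM in WT and 32.2, 24.2 and 35.1 CPM in CM-KO, with overlapping pools and a change of 0.45 (SE 0.15, adjusted p = 0.398). Its RNA change was 0.30 (SE 0.11, adjusted p = 0.179) and passed the threshold without WT pool 3 (0.44, adjusted p = 0.0178); without WT pool 1 it was 0.22 (adjusted p = 0.367).

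None of the amino acid and acylcarnitine carriers was called, with 8 tested in RNA and 7 in footprints and occupancy. Slc25a29, a carrier of basic amino acids, had an occupancy change of 0.71 (SE 0.48, adjusted p = 0.965) from 8 to 33 footprints a pool, and it shares 230 exon bases with the neighbouring member Slc25a47 on the opposite strand. The uncoupling-type and less characterised carriers had 6 members tested, of which 5 were below 0 in RNA, as were 20 of the 42 members. Slc25a43 RNA was at 3.71, 3.95 and 3.14 CPM in WT and 2.47, 2.58 and 2.69 CPM in CM-KO, without overlap, a change of -0.48 (SE 0.23, adjusted p = 0.347). Slc25a30 RNA was at 38.5, 36.4 and 39.8 CPM in WT and 33.3, 30.8 and 27.5 CPM in CM-KO, without overlap, a change of -0.32 (SE 0.08, adjusted p = 0.0592). Slc25a35 had the widest interval in footprints, from -0.74 to 1.80 around 0.53, with 1 to 16 footprints a pool. Slc25a18 and Slc25a47 had too few footprints to be tested in that assay.

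The sequence features of the mRNAs were compared with those of all genes tested. Structure before the start codon is the feature most often linked to DDX3X. The members' 5′ untranslated regions had a median GC content of 69.6% against 64.7% for all genes and a median length of 223 against 244 bases. Their median predicted folding energy was -44.9 kcal/mol per 100 bases in the 32 members with regions of up to 400 bases, against -38.6 in 9791 genes. Slc25a46 had a region of 126 bases with 72.2% GC and -50.2 kcal/mol per 100 bases, and Slc25a23, whose occupancy change was 0.74 and not called (adjusted p = 0.283), had 232 bases, 72.8% GC and -52.5 kcal/mol per 100 bases. Spearman's rho between folding energy and the occupancy change was 0.34 across the 32 members, and for GC content it was -0.16 across 40. These describe members of the same libraries and carry no test.

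Promoters, taken as 250 bases before to 50 after the gene start in the RefSeq table on GRCm38.p6, were found for 33 of the 42 members. Letters searched on both strands were GCATGCG for NRF1, CCGGAAG for GABPA and other ETS factors, and AAGGTCA for estrogen-related receptors, which are regulators of mitochondrial genes. CCGGAAG was found in 6 promoters (18.2%), those of Slc25a3, Slc25a4, Slc25a17, Slc25a20, Slc25a25 and Slc25a38, against 9.93% of 27025 genes. These 27025 are all genes with a promoter sequence, not only genes tested here, so the shares compare unlike sets. GCATGCG and AAGGTCA were found in none, against 4.01% and 5.38% of genes. Among 33 promoters such shares amount to few genes, so finding none cannot be read as a result about the members. Of the 6 genes with CCGGAAG, 5 had RNA levels in CM-KO pools that were all above WT. This layout was noticed after the values were seen and was held by 13.3% of all genes and 21.4% of the 42 members. Slc25a17 had an RNA change of 0.00 (SE 0.08, adjusted p = 0.995). Gabpa itself had an RNA change of 0.03 (SE 0.07, adjusted p = 0.929). A link between these letters and the RNA levels was not tested.

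The genes that insert carriers into the membrane were measured from a list of 22 import and channel genes. In RNA 3 of 22 were called, all higher, where 3.57% of all genes were called higher, and none was called in footprints or occupancy. The list as a whole was not raised in RNA. Its median log2 fold change was -0.02, against 0.01 for all genes, and 10 of 22 were above 0. Tomm40, the pore of the outer membrane translocase, changed by 0.40 (SE 0.07, adjusted p = 0.0104). Timm22, the insertase for carriers, changed by 0.46 (SE 0.10, adjusted p = 0.0245), and Tomm70a, the receptor that binds carrier precursors, by 0.30 (SE 0.07, adjusted p = 0.0302). Their footprint changes were -0.16, -0.26 and -0.04 (adjusted p = 0.689, 0.421 and 0.94). Of 3 carrier relatives under another symbol, Mtch2, an outer membrane insertase, was called higher in RNA (0.29, SE 0.06, adjusted p = 0.0271), as 3.57% of all genes were, and the uncoupling protein gene Ucp2 had 0.21 (SE 0.08, adjusted p = 0.17). Of 8 regulators of mitochondrial biogenesis, Ppargc1a was called lower in RNA (-0.34, SE 0.07, adjusted p = 0.018), as 0.805% of all genes were.

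The authors' deposited table, which holds adjusted p-values for 41 members, had at an adjusted p under 0.05 Slc25a46 and Slc25a4 higher and Slc25a23 lower in RNA, no member in footprints, and Slc25a46, Slc25a4 and Slc25a11 lower in ribosome occupancy. In the authors' deposited table, Slc25a4 had log2 fold changes of 0.26 in RNA (adjusted p = 0.00334) and -0.51 in occupancy (adjusted p = 3.46e-06), and Slc25a46 had 0.92 (adjusted p = 2e-21) and -1.23 (adjusted p = 9.67e-17). For Slc25a1 the authors' deposited table gave an RNA change of 0.38 with adjusted p = 0.0603. The fold changes of these genes lay close to those fitted here, while the side of the threshold differed for Slc25a1, Slc25a4 and Slc25a11.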

How the data were processed

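Per the labels, the 6 pools of hearts each gave an RNA-seq and a footprint library, and reads were processed on mm39 with the in-house pipeline of the sequencing provider. Its aligner, annotation, strand setting and counted part of the transcript are not named in the labels. Exon overlaps with opposite-strand genes are printed above for some members only, and other members described here have them too. Examples are Slc25a37 with Gm63459 (1422 bases), Slc25a28 with BC037704 (1135), Slc25a25 with Naif1 (404) and Slc25a11 with Rnf167 (189). The part of such overlaps in the counts was not tested. The deposited merged table gives raw read counts per gene by the authors, whole numbers without normalization, beside library-scaled values (RPM), which served only as a check of the column map. Per the labels, the authors tested RNA with DESeq2. The deposited merged table also holds the authors' own log2 fold changes and adjusted p-values, printed only where named. 6 columns of per-pool ratios were not used. The 4618 genes with blank cells were left out of tests.

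Counts were tested with edgeR 4.0.16 (quasi-likelihood, TMM scaling within an assay, filterByExpr, robust) in R 4.3.3 with limma 3.58.1, with Benjamini-Hochberg adjustment over all genes tested and a threshold of 0.05. RNA and footprints were each fitted as 3 against 3 pools, and occupancy as the genotype by assay interaction over 12 libraries. Printed CPM are TMM-scaled, and ratios use a prior count of 1. DESeq2 1.42.0 was an alternative. The scripts were tested on simulated data. Over all genes tested, 95% intervals reached a median of 0.23 (RNA), 0.32 (footprints) and 0.41 (occupancy) log2 units to each side. Reads carry no molecular identifiers in the files, so counts with few reads are the least certain.

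The RNA and footprint library of a pool share their hearts. They count as paired for that reason. How far each lay from its group mean correlated at 0.24 to 0.60 within pools, over 4216 genes. WT and CM-KO pools that share only a number reached 0.32 in RNA and 0.28 in footprints. These correlations therefore do not establish the pairing. The main occupancy fit has no pool term and does not use this pairing. The edgeR occupancy fit blocked by pool is printed where it changed a call. For Slc25a46 it gave -1.20 (adjusted p = 6.38e-06). WT and CM-KO pools of one number share only that number.

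Features come from GENCODE vM39 on GRCm39 (21594 gene IDs matched, 189 did not) and RNAfold 2.7.2, and identities from Biopython 1.88. Protein sequences were not analysed here. Named genes were members called in any comparison, the 5 highest per length, the 5 largest changes in each comparison, the extremes of occupancy, Slc25a46, the heme and iron carriers and the paralogue pairs. Others named beside a count were chosen after their values were seen. The members and lists were chosen with earlier results of these data known.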

Additional observations from a re-analysis of the deposited data

How the results depend on the processing

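The RNA calls of Slc25a46 and Slc25a23 held under every alternative run, and the occupancy call of Slc25a46 under all but the fit without CM-KO pools 1 and 2. Leaving out 1 pool at a time gave 2 to 5 members called in RNA, 5 without WT pool 3, and 0 in footprints and 1 in occupancy throughout. The number called in footprints was 1 with DESeq2. In occupancy it was 3 with upper quartile scaling and 0 without CM-KO pools 1 and 2. With the replicate block it was 2 in RNA, 0 in footprints and 2 in occupancy. Shares over all genes are not given for the fits with 1 pool left out or with the replicate block. Those counts therefore cannot be read as a result about the members. In RNA and footprints that block joins WT and CM-KO pools that share only a number, and their deviations correlated at -0.24 to 0.32 in RNA and 0.06 to 0.28 in footprints. The calls in RNA with the study's fold threshold numbered 2.

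The members' median log2 fold change lies near 0 and moved with the settings. In RNA (0.01) it was -0.03 with upper quartile scaling, 0.05 with Afp as a covariate, 0.02 with the replicate block, and -0.03 to 0.06 over the fits with 1 pool left out. In footprints (-0.06) it was -0.08 with upper quartile scaling, -0.02 without CM-KO pools 1 and 2, -0.04 with the replicate block, -0.03 with all 12 libraries in one model, and -0.06 to -0.01 with 1 pool left out. In occupancy (0.07) it was 0.05 with upper quartile scaling and without CM-KO pools 1 and 2, and -0.05 to 0.08 with 1 pool left out. The median WT ratio of -0.44 was -0.95 with CPM scaled to library totals. The cause of these shifts was not tested. Of 943 values of single genes under alternatives, 875 kept their direction and their side of the threshold, 7 passed it newly, 10 lost it, 42 were uncalled values that changed sign, and 9 had no adjusted p from DESeq2. Depth limits the low carriers, such as Slc25a35 with 1 to 16 footprints a pool. The search for carrier signature motifs in proteins was not run.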
